A study of Oryctolagus cuniculus with 2 samples.

Results

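The bipolar module score is a value that the authors deposited for every nucleus, meant to say how strongly that nucleus expresses a set of bipolar cell genes. It is 1 of 9 such scores, and it was described here over all 6542 nuclei of 6542, of which 222 were annotated as bipolar cells by the authors, 4296 as rods, 1029 as amacrine cells, 324 as ganglion cells, 305 as cones, 185 as Müller glia and 181 as horizontal cells. The genes behind the score are not given in the files used here, so none is named, and the annotation could not be set against single marker genes. It could be set against the scores, but both come from the same authors and the same counts. A high score in a cell type is therefore no independent check of its label. The score is a difference on a log scale, and levels are therefore compared by differences and never by folds. A score above 0 means that the set stood above the genes it was set against, and a score below 0 that it stood beneath them.

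The nuclei came from the retinas of 10-month-old rabbits, either wild-type or CLRN1 knockout, and no other treatment is named for either group. The 5 mm punches were cut in the visual streak, the band of densest cells in the rabbit retina. Nuclei of 3 animals were pooled per genotype and captured as 1 droplet library each, with 3484 wild-type and 3058 knockout nuclei. Genotype, pool of animals and library therefore cannot be told apart, and differences are reported without tests. The knockout library was the deeper one, with a median of 1552.5 UMIs (unique molecular identifiers, each a captured transcript) per nucleus against 1175.5 in the wild-type library, and since such a score can move with depth, levels are also given in 4 ranges of UMIs per nucleus, divided at 1000, 2000 and 4000. Intervals are 95% intervals (order statistics for a median, exact Clopper-Pearson for a share), and they cover counting error only, since nuclei of a library are not replicates.

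Bipolar cells are the interneurons that carry the signal of photoreceptors from the outer to the inner retina. ON types respond to light with depolarisation through a metabotropic glutamate receptor. OFF types, which do not depolarise in light, use ionotropic receptors, and the rod bipolar cell serves the rod pathway. Photoreceptors share with bipolar cells a common embryonic origin, ribbon synapses and part of their transcription factors. CLRN1 encodes clarin-1, a membrane protein mutated in a form of Usher syndrome.

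Bipolar cells stood far above every other cell type. Their median score was 0.71 (interval 0.62 to 0.76), with quartiles of 0.40 and 1.03 and a range from −0.21 to 1.84, and 217 of the 222 nuclei (97.7%, 94.8 to 99.3%) lay above 0. The median was below 0 in each of the other 6 types. It was −0.14 in Müller glia (−0.17 to −0.06), the radial glia of the retina, and −0.14 in ganglion cells (−0.16 to −0.14), the output neurons. Rods followed at −0.164 (−0.170 to −0.155). Cones (−0.21, −0.23 to −0.20), amacrine cells (−0.23, −0.24 to −0.22) and horizontal cells (−0.24, −0.25 to −0.23) were the lowest. Neighbours in this order had overlapping intervals, except bipolar cells against Müller glia and rods against cones.

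**Figure D1:**
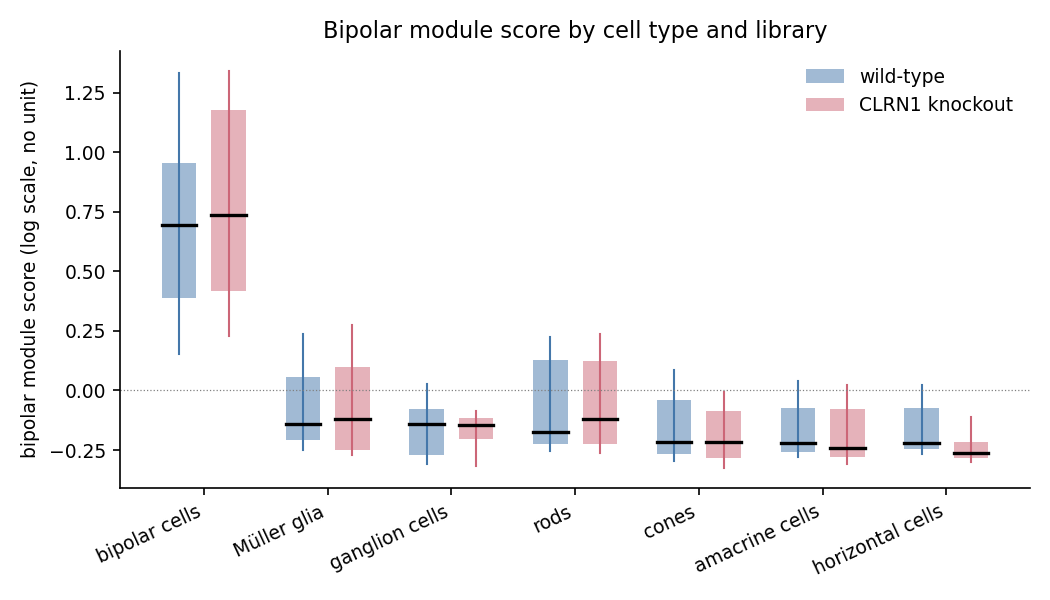
Bipolar module score (vertical axis, log scale without unit) in each of the 7 cell types, by library. Boxes span the quartiles, thin lines the 10th to the 90th percentile and black bars mark the medians. Bipolar cells sit at medians of 0.70 and 0.74, while every other box has its median below 0. Rods and Müller glia have boxes that reach above 0.

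The distance between bipolar cells and the other types was large at every depth. The median of bipolar cells exceeded that of rods by 0.87, of cones by 0.92, of amacrine cells by 0.94, of horizontal cells by 0.95, of ganglion cells by 0.85 and of Müller glia by 0.85. Weighted over the UMI ranges, the same differences were 0.80, 0.90, 0.91, 0.95, 0.83 and 0.81. Drawn at random, a bipolar nucleus had the higher score than a rod in 95.3% of pairs, than a cone in 98.5%, than an amacrine cell in 98.6%, than a horizontal cell in 99.4%, than a ganglion cell in 98.9% and than a nucleus of Müller glia in 94.8%. Against rods the difference of medians lay between 0.69 and 0.84 in the 4 UMI ranges, and the share of pairs ran from 93.5% among nuclei with 4000 or more UMIs to 96.6% among those with 2000 to 3999.

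Within bipolar cells the score was broad. All of them lie in cluster 6 of the authors' clustering. The median was 0.61 (0.23 to 0.85) in the 19 nuclei under 1000 UMIs, 0.62 (0.49 to 0.75) in 79 nuclei with 1000 to 1999, 0.75 (0.67 to 0.90) in 103 nuclei with 2000 to 3999 and 0.71 (0.47 to 1.22) in 21 nuclei with 4000 or more, and the intervals of all 4 ranges overlapped. The 5 bipolar nuclei at or below 0 all had 1000 to 3999 UMIs. At the lower end the score did not set bipolar cells apart from the upper tail of rods: 32 bipolar nuclei (14.4%, 10.1 to 19.7%) lay at or under the 90th percentile of rods, 0.23, and 90 (40.5%, 34.0 to 47.3%) at or under the 99th, 0.58.

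The bipolar score was the highest of the 9 scores in 120 of the 222 bipolar nuclei (54.1%, 47.3 to 60.7%). In 61 nuclei (27.5%, 21.7 to 33.9%) the rod score was the highest, in 14 the general photoreceptor score, in 13 the cone score, in 11 the horizontal score and in 3 the Müller glia score. Elsewhere the bipolar score led rarely, in 49 rods (1.14%), 15 amacrine nuclei (1.46%) and 1 nucleus of Müller glia, and in none of the cones, horizontal or ganglion cells. Of the 49 rods, 35 were in cluster 2, and of the 15 amacrine nuclei, 8 were in cluster 18. In amacrine cells the bipolar score led in 14 wild-type nuclei (2.5%, 1.37 to 4.16%) and 1 knockout nucleus (0.21%, 0.005 to 1.18%), with intervals apart. Among bipolar nuclei it led in 7 of 19 under 1000 UMIs, where the median rod score was 0.85, in 42 of 79 with 1000 to 1999 and 61 of 103 with 2000 to 3999, where it was 0.32 in both, and in 10 of 21 with 4000 or more UMIs, where it was 0.67. The intervals of these 4 shares overlapped.

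Bipolar nuclei with a higher bipolar score had a lower rod score. When they were ordered by bipolar score and divided into 4 parts of 55 or 56 nuclei, the median rod score was 0.72 in the lowest part, 0.48 and 0.40 in the next parts and −0.07 in the highest. Spearman's rho between both scores was −0.38 over the 222 nuclei, given as a description, since the nuclei share 2 libraries and both scores come from the same counts. Depth differed less between these parts, with median UMIs of 1813, 2293, 1908 and 2465.5. The horizontal score was also distinct in the highest part, with a median of 0.27 against −0.06, −0.07 and −0.05 in the others. The part of rod RNA from outside the nucleus in these scores was not tested.

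Of the 26 clusters, only 3 had a median above 0. These were bipolar cluster 6, amacrine cluster 18 at 0.06 (−0.03 to 0.10) and rod cluster 2 at 0.001 (−0.02 to 0.02). The remaining clusters ranged down to −0.27 in amacrine cluster 26. Cluster 18 held 71 nuclei labelled as amacrine cells, a type of inhibitory interneuron. Of these, 43 (60.6%, 48.3 to 72.0%) lay above 0, against 10.6% (8.77 to 12.8%) of the other amacrine cells. The 10 clusters of the other amacrine cells lay at medians of −0.27 to −0.07. At 2000 to 3999 UMIs the median was −0.02 in 38 nuclei of cluster 18 and −0.25 in 558 other amacrine nuclei, and at 4000 or more UMIs it was 0.09 in 28 and −0.25 in 179. Cluster 18 also had a median Müller glia score of 0.20, against −0.17 in the other amacrine cells, and an amacrine score of 0.33 against 0.39. A single nucleus of cluster 18 passed the lower quartile of bipolar cells.

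**Figure D2:**
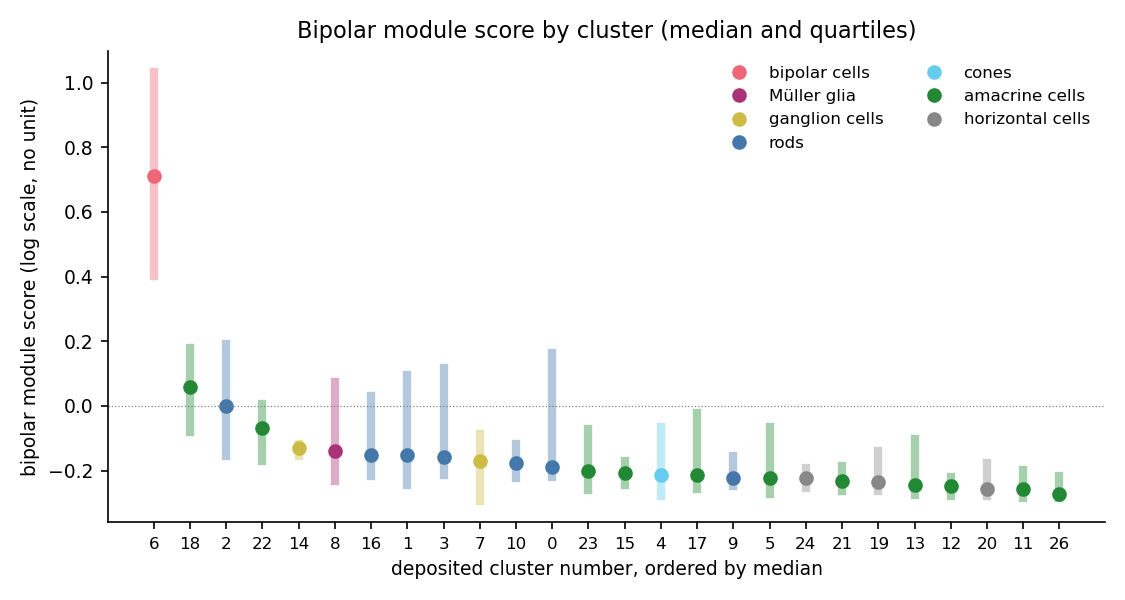
Median bipolar module score (points, vertical axis, log scale without unit) and quartiles (bars) of the 26 deposited clusters, ordered by median and coloured by the deposited cell type. Cluster 6 stands apart at 0.71. Among the other clusters, amacrine cluster 18 and rod cluster 2 are the highest, at 0.06 and 0.001.

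The 7 clusters labelled rods, the photoreceptors of dim light, were not alike. Clusters 0, 1 and 3, the main body of rods, had medians of −0.19, −0.15 and −0.16, with 35.0%, 42.9% and 34.4% of nuclei above 0. In cluster 2, with a median of 3968 UMIs against 798 in clusters 0, 1 and 3, 50.1% (46.6 to 53.6%) lay above 0. Clusters 9 and 10 had medians of −0.22 and −0.18 and smaller shares above 0, at 11.7% (7.37 to 17.3%) and 18.2% (12.2 to 25.5%). Cluster 16, which came almost wholly from the knockout library (76 of 78 nuclei), lay at −0.15 with 29.5% (19.7 to 40.9%) above 0. Over all rods, 1651 of 4296 nuclei (38.4%, 37.0 to 39.9%) had a score above 0, against 15.1% (11.3 to 19.6%) of cones, 14.1% of amacrine cells, 8.29% of horizontal cells, 6.48% of ganglion cells and 35.1% (28.3 to 42.5%) of Müller glia.

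Under 2000 UMIs, rod scores fell into 2 separate parts with an almost empty zone between them. Over rods of all depths the emptiest bin between the peaks held 57 nuclei, 33.7% of the smaller peak. Among rods under 1000 UMIs the fullest bin of the score, 0.025 wide, lay at −0.21 with 454 nuclei and a second peak lay at 0.19 with 118 nuclei, while the bin at −0.01 between them held 0. With 1000 to 1999 UMIs the peaks moved to −0.26 and 0.09, and the emptiest bin, at −0.09, held 1 nucleus. Within the upper part the count there fell from 80 at its peak to 30, and it rose again to 50 from 0.15 to 0.175. With all rod clusters together, the emptiest bin held 42.3% of the smaller peak at 2000 to 3999 UMIs and 80% at 4000 or more. At 2000 to 3999 UMIs the fullest bin of all rods, at −0.24, held 49 nuclei. Of these, 0 were from clusters 0, 1 and 3 and 1 was from cluster 2. The 160 nuclei of clusters 9, 10 and 16 at this depth had a median of −0.23, so they filled the zone. Within clusters the parts were still apart at 2000 to 3999 UMIs. There the emptiest bin held 0 of 113 nuclei in clusters 0, 1 and 3, between peaks at −0.34 and −0.09, and 1 of 253 nuclei in cluster 2, between peaks at −0.34 and −0.06. At 4000 or more UMIs, where cluster 2 held 404 of 437 rods, its emptiest bin held 73.3% of the smaller peak. The second peak was always taken as the fullest bin at a set minimum distance from the fullest of all. At 2000 to 3999 UMIs a nearer bin of all rods, from −0.1 to −0.075, held 36 nuclei against 26 at the second peak. At 4000 or more UMIs the second peak of all rods held 15 nuclei and the emptiest bin 12, so 2 parts were not clear there.

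**Figure D3:**
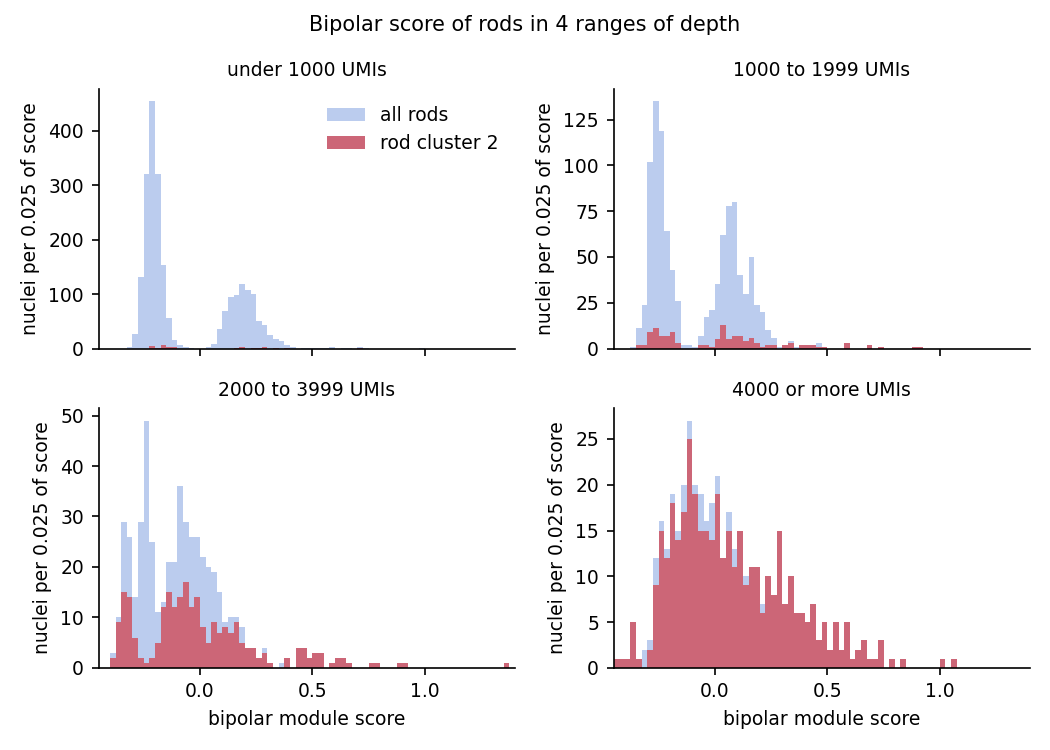
Histograms of the bipolar module score of rods (horizontal axis, bins of 0.025) in 4 ranges of UMIs per nucleus, with the number of nuclei on the vertical axis. Pale bars are all rods and red bars rod cluster 2. A zone with at most 1 nucleus per bin at its emptiest point separates 2 parts under 1000 UMIs and at 1000 to 1999 UMIs. With all rod clusters together the zone is filled at 2000 or more, while in cluster 2 its emptiest bin holds 1 nucleus at 2000 to 3999.

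The position of both parts followed depth. In clusters 0, 1 and 3, 2949 of the 3082 nuclei had under 2000 UMIs and were divided into 7 narrow UMI windows, with the limit between the parts set midway between their medians in each window. At 499 to 599 UMIs the lower part had a median of −0.19 and the upper part of 0.24, a gap of 0.43. At 800 to 999 UMIs the medians were −0.24 and 0.14, a gap of 0.37. At 1500 to 1999 UMIs they were −0.30 and 0.03, a gap of 0.33. Of the 2949 nuclei, 6 (0.203%) lay in the middle 33.3% of the gap of their window, so almost no nucleus was close to a limit.

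The gap narrowed with depth, as does the level that a single UMI gives a gene. Under the default log normalisation of Seurat, which scales each nucleus to 10000 UMIs, a gene with 1 UMI has the level ln(1 + 10000/UMIs). The sources used here do not give the setting that the authors used. This level was 2.96 at the median depth of the first window and 1.96 at that of the last. The gap divided by it was 0.145 at 499 to 599 UMIs, 0.149 at 800 to 999 and 0.168 at 1500 to 1999, and it lay between these values in the other windows. The part that the detection of single transcripts has in the 2-part shape was not tested, since the counts used here are not tied to named genes.

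**Figure D4:**
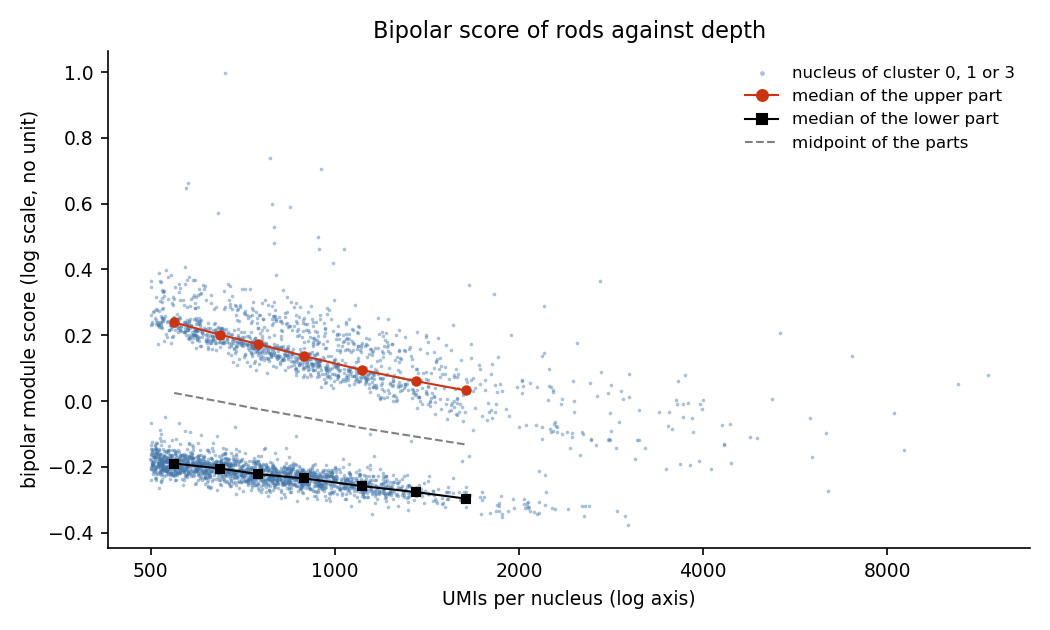
Bipolar module score (vertical axis, log scale without unit) of each nucleus of rod clusters 0, 1 and 3 against its UMIs (log axis). Squares and circles are the medians of the lower and the upper part in 7 UMI windows, and the dashed line is their midpoint. Both parts slope down with depth, from −0.19 and 0.24 to −0.30 and 0.03, and they approach each other.

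The upper part held more rods as depth rose. Its share in clusters 0, 1 and 3 was 29.2% (25.7 to 32.9%) at 499 to 599 UMIs, 40.9% (37.1 to 44.7%) at 800 to 999, 48.7% (44.0 to 53.4%) at 1000 to 1249 and 64.5% (54.9 to 73.4%) at 1500 to 1999. As the share passed 50% the median of the whole group jumped from one part to the other, so that the median of clusters 0, 1 and 3 was −0.19 (−0.19 to −0.18) under 1000 UMIs and −0.01 (−0.17 to 0.01) at 1000 to 1999. A median of rods therefore moves with the shares of both parts as well as with their positions.

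Apart from the bipolar score, the parts were alike in most scores. Under 1000 UMIs the median rod score was 1.378 in 1430 nuclei of the lower and 1.360 in 782 of the upper part, and the median UMIs were 681 and 731. At 1000 to 1999 UMIs the rod scores were 1.383 and 1.366. The general photoreceptor score was the exception, but only at 1000 to 1999 UMIs, with medians of −0.61 in the lower and 0.02 in the upper part. Under 1000 UMIs its medians were −0.52 and −0.54. The Müller glia score was −0.10 in both parts under 1000 UMIs and −0.13 and −0.14 above. Over the 3082 nuclei Spearman's rho of the bipolar score was −0.03 with the rod score and 0.04 with the general photoreceptor score, as descriptions.

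The other cell types were set against the same limits in the same UMI ranges. With the limits of the rod windows applied to all nuclei under 1000 UMIs, 804 of 2297 rods (35.0%, 33.1 to 37.0%; median 703 UMIs) lay above, against 5 of 47 cones (10.6%, 3.55 to 23.1%; 731 UMIs), 5 of 32 amacrine cells (15.6%, 5.28 to 32.8%; 876 UMIs), 6 of 29 Müller glia (20.7%, 7.99 to 39.7%; 795 UMIs) and 2 of 83 ganglion cells (2.41%, 0.293 to 8.43%; 651 UMIs). All 19 bipolar nuclei at this depth lay above (82.4 to 100%). For cones, ganglion cells and, only just, amacrine cells the intervals lay apart from that of rods, and for Müller glia they did not.

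At 1000 to 1999 UMIs the shares were lower than in rods for cones, amacrine cells, horizontal cells and ganglion cells, with intervals apart from that of rods. Above the limits lay 48.9% (45.9 to 52.0%) of 1036 rods, 32.0% (24.5 to 40.2%) of 147 cones, 22.2% (16.5 to 28.7%) of 194 amacrine cells, 20.5% (9.80 to 35.3%) of 44 horizontal cells and 0 of 19 ganglion cells (up to 17.6%). The share was 49.2% (36.4 to 62.1%) in 63 nuclei of Müller glia, close to that of rods, and 97.5% in 79 bipolar cells. Depth within this range was not equal. Median UMIs were 1244 in rods, 1360 in Müller glia, 1430 in ganglion cells and 1483 in cones. They were 1488 in bipolar cells, 1558 in amacrine cells and 1601 in horizontal cells. The limits were set on rods, and the level at which a type without these genes lies may differ from theirs: the ganglion cells under 1000 UMIs, all of cluster 14 with its median mitochondrial share of 4.58%, had a median of −0.13, above the lower part of rods at −0.21.

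Among the rod-labelled clusters at 1000 to 1999 UMIs, the share above the limits was highest in cluster 2, at 61.8% (52.9 to 70.2%) of 131 nuclei, followed by cluster 1 at 56.6% (52.4 to 60.9%), cluster 0 at 47.7% (38.2 to 57.4%), cluster 3 at 38.1% (27.7 to 49.3%), cluster 16 at 33.3% (15.6 to 55.3%), cluster 10 at 22.7% (13.8 to 33.8%) and cluster 9 at 13.0% (6.14 to 23.3%). Depth differed within this range, with median UMIs of 1415 in cluster 2, 1214 in cluster 1, 1121 in cluster 0 and 1186 in cluster 3. Clusters 16, 10 and 9 had medians of 1656, 1414 and 1460 UMIs. Since the share rose with depth in clusters 0, 1 and 3, this order is not one at equal depth. The part of depth in it was not tested. The intervals of clusters 9 and 10 lay apart from those of clusters 0, 1 and 2. Cluster 10 overlapped with cones and amacrine cells, while cluster 9 overlapped with amacrine cells and lay below cones. Cluster 3, with a median mitochondrial share of 0.97% against 0.124% in cluster 0, had an interval that overlapped those of clusters 0 and 10 and lay apart from those of clusters 1, 2 and 9.

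Rods with a score inside the main range of bipolar cells were few and lay mostly in cluster 2. Of all rods, 107 (2.49%, 2.05 to 3.00%) passed the lower quartile of bipolar cells, 0.40, and 91 of these (85.0%) were in cluster 2, where they made up 11.2% (9.11 to 13.6%) of 813 nuclei. Cluster 0 held 11, cluster 3 held 3, clusters 1 and 16 held 1 each, and clusters 9 and 10 held 0 of 180 and 0 of 143. The median of bipolar cells, 0.71, was passed by 18 rods. In cluster 2 the share past the lower quartile was 1 of 25 nuclei under 1000 UMIs, 10.7% (5.97 to 17.3%) at 1000 to 1999 UMIs, 10.7% (7.15 to 15.1%) at 2000 to 3999 and 12.1% (9.11 to 15.7%) at 4000 or more, with overlapping intervals. In clusters 0, 1 and 3 it was passed by 14 of 2212 nuclei under 1000 UMIs, 1 of 737 nuclei at 1000 to 1999 UMIs and 0 of 113 at 2000 to 3999.

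The high-scoring nuclei of cluster 2 had a lower rod score than the rest of the cluster. Its median was 0.63 in the 91 nuclei past the limit and 0.89 in the other 722. Their median depth was 4236 and 3937 UMIs. At 2000 to 3999 UMIs the rod scores were 0.46 in 27 and 0.83 in 226 nuclei, and at 4000 or more UMIs 0.70 in 49 and 0.97 in 355. In bipolar cells the rod score at these depths was 0.32 and 0.67, so at 4000 or more UMIs it was close to that of the high-scoring nuclei. Over all 813 nuclei of cluster 2 Spearman's rho of the bipolar score was −0.09 with the rod score and 0.20 with the horizontal score, as descriptions. The median horizontal score of high-scoring and other nuclei was −0.09 and −0.11 at 2000 to 3999 UMIs, and 0.07 and −0.11 at 4000 or more. Droplets that hold 2 nuclei were not searched for, since the counts used here are not tied to the nuclei by name, and their part in these scores was not tested.

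The score of cluster 2 followed its position in the authors' embedding, which was built from the same counts. Ordered by distance from the median position of bipolar cells and divided into 5 parts of 162 or 163 nuclei, cluster 2 had median scores of 0.22 (0.15 to 0.30) in the nearest part, 0.06 (0.01 to 0.11) in the second, −0.08 and −0.07 in the next parts and −0.11 (−0.15 to −0.05) in the farthest. The lower quartile of bipolar cells was passed by 50 of 163 nuclei (30.7%, 23.7 to 38.4%) in the nearest part and by 7 of 163 (4.29%, 1.74 to 8.65%) in the farthest. Depth changed along the same path, with median UMIs of 5263 in the nearest and 2481 in the farthest part. With nuclei of 4000 or more UMIs alone, the medians were 0.19 (0.13 to 0.29) in the nearest and −0.13 (−0.17 to −0.01) in the farthest part.

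Cluster 2 as a whole exceeded clusters 0, 1 and 3 by 0.18 in median. The difference was 0.05 within UMI ranges, 0.05 among nuclei with 1000 or more UMIs and 0.11 for means. At 4000 or more UMIs the medians were 0.02 in 404 nuclei of cluster 2 and −0.085 in 20 nuclei of clusters 0, 1 and 3. The 90th percentile of cluster 2 was 0.43.

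Cones, the photoreceptors of bright light, showed little of the bipolar score. Their highest score was 0.68, and 2 of 305 nuclei passed the lower quartile of bipolar cells. The 46 cones above 0 had a median cone score of 0.86 and rod score of 0.93, and the 259 others had 1.16 and 0.60. Horizontal and ganglion cells had no nucleus past that quartile, with highest scores of 0.17 and 0.31. In Müller glia 12 of 185 nuclei (6.49%, 3.40 to 11.1%) passed it. The Müller glia above 0 and at or below 0 had like scores of their own type, 1.33 in 65 and 1.35 in 120 nuclei.

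Between the libraries, the intervals of bipolar cells overlapped. The median was 0.696 (0.597 to 0.755) in 142 wild-type and 0.74 (0.56 to 0.90) in 80 knockout nuclei, a difference of 0.04, and of 0.05 within UMI ranges. With the ends of both intervals set against each other, the difference of medians ranged from −0.20 to 0.31. The bipolar score led in 78 wild-type nuclei (54.9%, 46.4 to 63.3%) and in 42 knockout nuclei (52.5%, 41.0 to 63.8%). The knockout median was higher in both UMI ranges with at least 10 nuclei per library, 1000 to 1999 (0.62 and 0.73) and 2000 to 3999 (0.75 and 0.78), with overlapping intervals.

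In rods the median was −0.17 (−0.18 to −0.17) in 2237 wild-type and −0.12 (−0.15 to −0.09) in 2059 knockout nuclei, a difference of 0.05 with intervals apart. The share above 0 was 35.9% (33.9 to 37.9%) and 41.2% (39.1 to 43.4%). Within UMI ranges the difference of medians was 0.053, and the knockout median was higher in 3 of 4 ranges. The wild-type and knockout medians were −0.184 and −0.189 under 1000 UMIs, and −0.19 and −0.01 at 1000 to 1999. They were −0.12 and −0.08 at 2000 to 3999 UMIs, and −0.007 and 0.022 at 4000 or more. The difference was thus widest at 1000 to 1999 UMIs, where the knockout median lay between the peaks of the 2 parts. Without cluster 2 the difference was 0.007 over all depths and 0.056 within UMI ranges, and the shares, 33.4% (31.3 to 35.6%) and 38.3% (36.0 to 40.8%), were still apart. The medians without cluster 2 were −0.184 and −0.189 under 1000 UMIs, and −0.20 and −0.02 at 1000 to 1999. They were −0.22 and −0.12 at 2000 to 3999 UMIs. In none of the 6 rod clusters with at least 10 nuclei per library did the intervals of the medians or of the shares lie apart, and the differences ranged from −0.03 to 0.07. The libraries also differed in how rods were spread over clusters and in depth, with median UMIs of 869 in wild-type and 1067 in knockout rods, and the part of these in the difference was not tested.

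At matched depth the upper part of rod clusters 0, 1 and 3 had overlapping shares in both libraries. At 499 to 599 UMIs it held 109 of 400 wild-type nuclei (27.3%, 22.9 to 31.9%) and 80 of 247 knockout nuclei (32.4%, 26.6 to 38.6%). The shares were 40.9% in both libraries at 800 to 999 and 55% (38.5 to 70.7%) and 70% (57.9 to 80.4%) at 1500 to 1999. The knockout share was the higher one in 6 of 7 windows, by 2.35 percentage points when weighted over the windows, and the intervals overlapped in all 7. Over all rods at 1000 to 1999 UMIs, low-scoring clusters 9 and 10 included, the shares were 43.7% (39.3 to 48.1%) and 54.0% (49.6 to 58.3%).

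**Figure D5:**
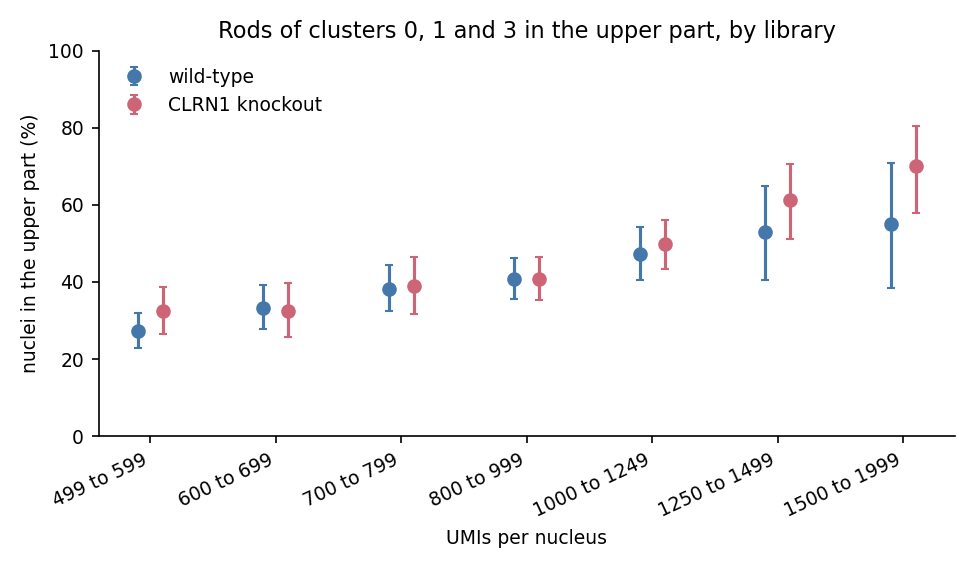
Share of nuclei of rod clusters 0, 1 and 3 in the upper part of the bipolar score (vertical axis, percent) in 7 windows of UMIs per nucleus, by library. Bars are exact 95% intervals, which cover counting error only. The share rises with depth in both libraries, and their intervals overlap in all 7 windows.

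In cluster 2 the medians of the libraries were −0.016 (−0.055 to 0.017) in 376 wild-type and 0.015 (−0.020 to 0.038) in 437 knockout nuclei, a difference of 0.031. The lower quartile of bipolar cells was passed by 9.04% (6.34 to 12.4%) and 13.0% (10.0 to 16.6%) of them, with overlapping intervals. Over all rods these shares were 1.83% (1.32 to 2.48%) and 3.21% (2.49 to 4.06%), with intervals just apart, and cluster 2 made up 34 of the 41 wild-type and 57 of the 66 knockout nuclei.

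Outside rods the medians of the libraries lay apart in 1 cell type, horizontal cells, the lateral interneurons of the outer retina. They were at −0.22 (−0.23 to −0.20) in 84 wild-type and −0.26 (−0.27 to −0.25) in 97 knockout nuclei, with median UMIs of 2281.5 and 3729, and the difference of −0.04 was −0.02 within UMI ranges. In ganglion cluster 7 the medians overlapped, at −0.16 and −0.18, but 18 of 122 wild-type nuclei (14.8%, 8.98 to 22.3%) and 1 of 95 knockout nuclei (1.05%, 0.0266 to 5.73%) lay above 0. This was the only one of the 25 clusters with at least 10 nuclei per library in which the intervals of that share lay apart. At 4000 or more UMIs the counts in cluster 7 were 16 of 111 and 1 of 93. Median depth there was 5924 and 7830 UMIs, and its part in the difference was not tested. Of the 25 clusters, the medians lay apart in 4, amacrine clusters 11 and 12 and horizontal clusters 19 and 20, each lower in the deeper knockout library, though in cluster 20 the sign turned within the 1 UMI range that could be compared, to 0.01.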

How the data were processed

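Single-nucleus RNA was counted in 2 libraries, 1 per genotype, each from 3 pooled animals. Build OryCun2.0, Seurat 4.3.0, Cell Ranger 7.0 and DESeq2 1.38.0 are listed, without roles, per the submitters' processing notes. The deposited counts are UMI counts per nucleus (499 to 30726), and the mitochondrial percent, cell types, cluster numbers and embedding were used as deposited. The deposited scores have column names of the form Seurat's module scoring gives. That method takes the mean level of a list and subtracts that of control genes. The lists and the filters on nuclei were not given in the sources. The count matrix was not used, because its columns carry numbers in place of nucleus names. Nuclei could therefore not be thinned to 1 depth, no doublet caller was run and no gene was named. Library names in the table of nuclei gave each nucleus its group, and 5 barcodes occurred in both libraries.

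Medians, shares and differences within UMI ranges (at least 10 nuclei on each side, weighted by the smaller number) were computed with SciPy 1.17.1, numpy 2.4.6 and pandas 2.3.3 in Python 3.11.15, drawn with matplotlib 3.10.9 and checked on simulated data. The limit between the parts of rods was found by iterating the midpoint of their medians. The score, the clusters compared and the alternatives were chosen with earlier results of these data known. The rule for named genes was to name none. Clusters were made by the authors from the same counts as the score, so differences between clusters, and between the cell types made of them, are descriptions.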

Additional observations from a re-analysis of the deposited data

Results flagged for a closer look

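The difference between the libraries had opposite signs in rods and horizontal cells. The median bipolar score of the knockout library was higher by 0.0531 in rods and differed by −0.0426 in horizontal cells, and in both types the intervals of the libraries lay apart. Whether these differences differ from each other was not tested, since each genotype is 1 library.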

How the results depend on the processing

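Alternatives were nuclei with 1000 or more UMIs, nuclei under 1% mitochondrial UMIs, means, UMI ranges, each library alone and leaving out named clusters. The excess of bipolar cells over each of the 6 other types stayed within the interval of its main value in all of these. The excess of rod cluster 2 over clusters 0, 1 and 3, 0.184, was 0.0471 within UMI ranges, 0.113 for means and 0.0467 with 1000 or more UMIs. The higher median of knockout rods, 0.0531, was 0.00709 without cluster 2 and 0.0560 without cluster 2 within UMI ranges. It was 0.0533 for all rods within UMI ranges, 0.0824 with 1000 or more UMIs and 0.0204 for means. Under 1000 UMIs the knockout median was the lower one, at −0.1891 against −0.1836 for all rods. The difference was widest at 1000 to 1999 UMIs, with −0.0098 against −0.189 for all rods. Without cluster 2 the medians there were −0.0190 and −0.200. The share of rods above 0, 38.4%, was 42.0% with the emptiest point of the rod scores as the limit and 2.49% with the lower quartile of bipolar cells. It was 42.4% with 1000 or more UMIs, 35.7% without cluster 2, 40.6% without clusters 9, 10 and 16, 35.9% in the wild-type and 41.2% in the knockout library. With limits set in the UMI windows, chosen after seeing the data, it was 39.3%. The causes were not tested. No paired analysis was possible because each genotype is 1 library. The number of bipolar nuclei, 80 in the knockout library, limits what could be seen between libraries in that type.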
